A study of Mus musculus with 12 samples.

Results

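Wdfy1 and 6 genes that lie near it on mouse chromosome 1 (Farsb, Acsl3, Ap1s3, Mrpl44, Serpine2 and Cul3) were followed across 12 colon RNA-seq libraries. The 7 genes were found by symbol in a table of 21899 genes, and all 7 were among the 14393 tested genes that were left by the filter on low counts. Wdfy1 was chosen by its measured CPM in these libraries, which fall into 2 separate levels that cut across the genotypes, so those values are a description here and carry no test. The other 6 genes were chosen for their position, and the questions are whether they follow Wdfy1 from library to library and which other genes do.

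The libraries were made from whole colon tissue of 12 mice. The 6 mice labelled CKO, called knockout below, lacked Pck1 in the epithelium of the intestine. Their 6 littermates, labelled WT, served as controls. All 12 had received 2.5% DSS (dextran sulfate sodium, which damages the epithelium and causes colitis) for 7 days, and no mice without DSS were used here. Pck1 encodes cytosolic phosphoenolpyruvate carboxykinase, an enzyme of gluconeogenesis. The sources used here give neither the strain and age of the mice nor the promoter that drives the deletion. In whole tissue, fewer cells of a type and less RNA per cell cannot be told apart.

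Wdfy1 encodes a protein with WD repeats and a FYVE domain, the fold that binds phosphatidylinositol 3-phosphate (PI3P) on early endosomes. It is known as an adaptor that brings TRIF (the product of Ticam1) to the receptors TLR3 and TLR4, which sense double-stranded RNA and bacterial lipopolysaccharide. Mrpl44 is a protein of the large subunit of the mitochondrial ribosome, and Farsb is the beta subunit of the cytosolic phenylalanyl-tRNA synthetase. Ap1s3 is a small subunit of the clathrin adaptor AP-1, which sorts cargo between the trans-Golgi network and endosomes. Acsl3 activates long-chain fatty acids to acyl-CoA at the endoplasmic reticulum and on lipid droplets. Serpine2, also called protease nexin-1, is a secreted inhibitor of thrombin and of plasminogen activators. Cul3 is the scaffold of ubiquitin ligases that use BTB-domain adaptors such as KEAP1.

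In the GENCODE M21 annotation of GRCm38, Wdfy1 (ENSMUSG00000073643) lies on the minus strand at chr1:79702262-79776143. Mrpl44 (ENSMUSG00000026248) lies on the plus strand at chr1:79776018-79781445, so the 2 genes run head to head and share 126 bases. Wdfy1 has 14 annotated transcripts, of which 1 begins within the Mrpl44 gene and 7 begin at a common start that is 14.2 kb from the Mrpl44 start. Ap1s3 (ENSMUSG00000054702, minus strand) is the nearest tested gene on the other side, at chr1:79606876-79671972, 30.3 kb from Wdfy1. Serpine2 (ENSMUSG00000026249, minus strand) lies at chr1:79794197-79861180, 18.1 kb away, and Cul3 (ENSMUSG00000004364, minus strand) at chr1:80264923-80340480, 488.8 kb away. The 2 most distant are Acsl3 (ENSMUSG00000032883, plus strand) at chr1:78657825-78707743, 994.5 kb away, and Farsb (ENSMUSG00000026245, minus strand) at chr1:78417975-78488897, 1213.4 kb away. The submitters' processing notes list more than 1 build without saying which was used for counting, so these positions describe the genes and not the alignment. Whether strand was used in counting is not given in the sources used here, and reads from the 126 shared bases cannot be assigned between Wdfy1 and Mrpl44.

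The start regions of Mrpl44 and Ap1s3 are shown because they belong to the nearest tested gene on each side of Wdfy1. Each is the 250 bases before the gene's start in RefSeq (GRCm38.p6), read 5′ to 3′ along the gene, and 6 of the 7 genes (not Wdfy1) were matched in that table. Capitals mark CG dinucleotides, the positions at which DNA is methylated and which are dense in the promoters of many broadly expressed genes.
Mrpl44, plus strand, chr1:79775768-79776017: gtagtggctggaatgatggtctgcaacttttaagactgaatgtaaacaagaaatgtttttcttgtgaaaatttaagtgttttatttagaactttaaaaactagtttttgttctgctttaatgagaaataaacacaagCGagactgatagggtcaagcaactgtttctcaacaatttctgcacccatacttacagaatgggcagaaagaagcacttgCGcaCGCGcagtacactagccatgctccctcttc
Ap1s3, minus strand, chr1:79671973-79672222: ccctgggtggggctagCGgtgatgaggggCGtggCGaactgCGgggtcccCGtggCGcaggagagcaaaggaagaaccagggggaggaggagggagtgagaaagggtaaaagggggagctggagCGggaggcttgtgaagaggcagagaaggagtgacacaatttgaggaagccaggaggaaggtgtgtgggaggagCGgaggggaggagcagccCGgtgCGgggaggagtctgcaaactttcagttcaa
The Mrpl44 window lies inside the annotated span of Wdfy1 and holds 4 CG dinucleotides, and 62.2% of 32851 such windows in the table hold at least as many. The Ap1s3 window holds 10, a number reached by 37.8% of windows. The Farsb window holds 8, Cul3 23, Acsl3 28 and Serpine2 34 CG dinucleotides, and 43%, 13.3%, 7.61% and 3.53% of windows hold at least as many. The 2 genes that flank Wdfy1 thus have fewer than Cul3, Acsl3 and Serpine2; the letters are a description and say nothing of a bound factor.

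Total counts per library lay between 15348192 and 19138507. Pck1 was at 2.28 to 7.32 CPM (read counts scaled by library size and TMM) in the 6 knockout libraries and at 34.5 to 84.7 CPM in the 6 controls, so the genotype labels hold at the targeted gene. Knockout 2 and control 1 were least like the rest, with a median correlation to the other libraries of 0.931 and 0.948 against 0.953 to 0.969. Both are among the libraries with high Wdfy1, so results for the 7 genes and for some of the genes most like Wdfy1 are also given without them. In 10.2% of the tested genes with a mean of at least 1 CPM, knockout 2 and control 1 were the 2 lowest libraries, and in 5.63% they were the 2 highest. Mitochondrially encoded genes took between 5.59% (knockout 2) and 10.7% (control 5) of a library. All 8 markers of colon epithelium were detected, at a summed 7986 to 13847 CPM in knockout and 9324 to 13971 CPM in control libraries. The 4 fibroblast markers summed to 3353 to 8368 CPM in knockout and 2010 to 4185 CPM in control, the 5 immune markers to 130.2 to 487 and 102 to 343 CPM, the 5 smooth muscle markers to 1607 to 2508 and 1613 to 3526 CPM, and the 4 adipocyte markers to 30.2 to 154 and 39.6 to 85.8 CPM. The 5 exocrine pancreas markers varied most, from 33.5 to 1096 CPM in knockout and from 73.1 to 15345 CPM in control. None of these markers was at 0 counts in a whole group.

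Wdfy1 stood at 31.9 CPM in knockout 2, 33.8 in knockout 6, 35.5 in control 4 and 38.0 in control 1. In the other 8 libraries it stood at 8.49 (knockout 1), 8.90 (knockout 3), 8.31 (knockout 4), 8.99 (knockout 5), 9.12 (control 2), 8.71 (control 3), 10.4 (control 5) and 7.76 CPM (control 6). Each genotype thus has 2 libraries at the upper level and 4 at the lower one. The counts behind these levels were 547 to 616 reads in the upper libraries and 134 to 171 in the lower ones. The 95% Poisson intervals, which cover counting error only, reached at most 12.1 CPM in the lower libraries (control 5) and began at 29.3 CPM or above in the upper ones (lowest in knockout 2). The lowest upper library was 3.06 times the highest lower one, while the spread was 1.19-fold within the upper libraries and 1.34-fold within the lower ones. In the ordering of libraries, neighbours within a level had overlapping counting intervals, and only the step from control 5 to knockout 2 was wider than they are.

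The step is also present in the deposited TPM, which are scaled for gene length by the authors: 15.1 to 17.0 TPM in the upper libraries and 3.22 to 5.35 TPM in the lower ones, a ratio of 2.83 across the step. On the log2 CPM scale the widest gap between ordered libraries was 1.60, or 70.5% of the whole range of 2.27. Without knockout 2 and control 1 the gap was 1.69, and it lay between 1.34 and 1.79 over all 18 settings tried. Of 13908 tested genes with a mean of at least 1 CPM, 3 had a gap that took a larger share of their range. They were Ppat, an enzyme of purine synthesis, with only knockout 2 and knockout 3 low (13.4 and 13.3 CPM against 28.5 to 34.7), Evi5, a regulator of Rab11 traffic, with only knockout 2 and control 1 low (21.4 and 21.5 against 38.1 to 47.3 CPM), and the predicted gene Gm45837, with 2 libraries at 0 counts. In log2 units the gap of Wdfy1 ranked 56 among the 13908. Among the 5369 genes whose widest gap left at least 4 libraries on each side, the share was highest for Wdfy1. Its gap ranked 38 among them in log2 units. Wdfy1 was chosen for its 2 levels and itself has 4 upper libraries, so these ranks only describe it.

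**Figure D1:**
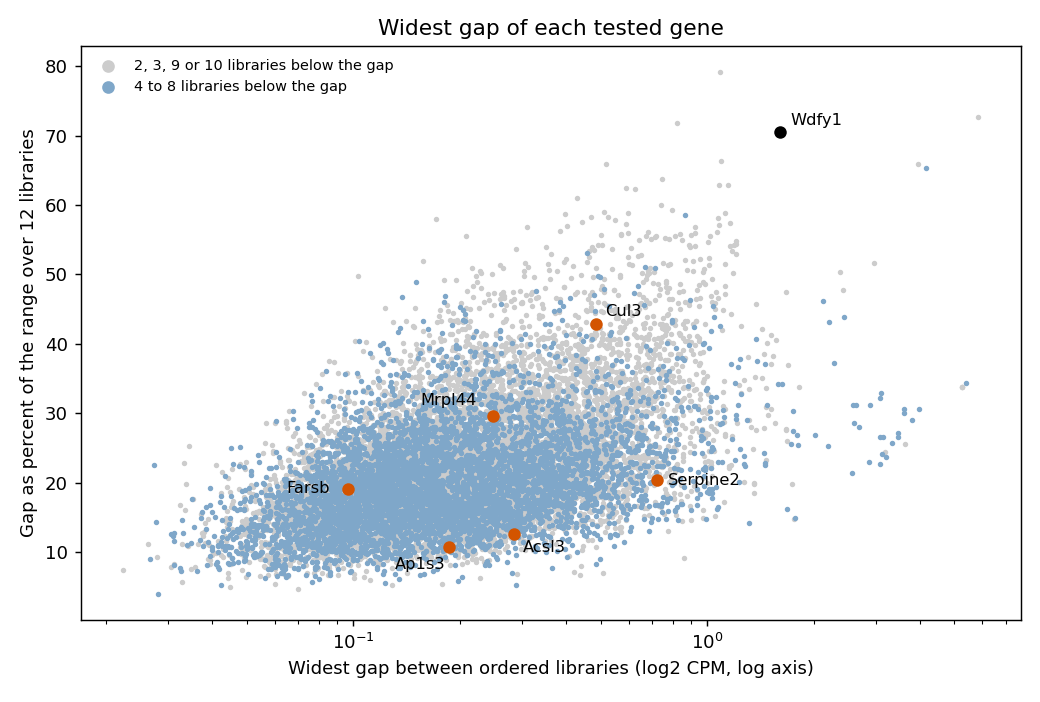
Each point is 1 tested gene with a mean of at least 1 CPM. The x axis (log axis) gives its widest gap between ordered libraries in log2 CPM and the y axis gives that gap as a percent of the gene's range over the 12 libraries. Wdfy1 stands at 1.60 and 70.5%, and its 6 neighbours (orange) all lie below 43%.

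Wdfy1 averaged 16.7 ± 12.5 CPM in knockout and 18.3 ± 14.4 CPM in control (SD, n = 6 each), and its ranges overlapped almost fully (8.31 to 33.8 against 7.76 to 38.0 CPM). The log2 fold change of knockout minus control was -0.12 with an SE of 0.54, given as a description. In the authors' deposited table it was 0.04. Exocrine pancreas markers summed to 33.5 CPM in knockout 2, 34.3 in knockout 6 and 73.1 in control 1, the 3 lowest values of all libraries, but to 2098 CPM in control 4, the second highest. Their summed level had r = -0.57 with Wdfy1 over the 12 libraries, and the other 5 marker lists had r between -0.30 and 0.24. The part of these cell types in the Wdfy1 levels was not tested.

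**Figure D2:**
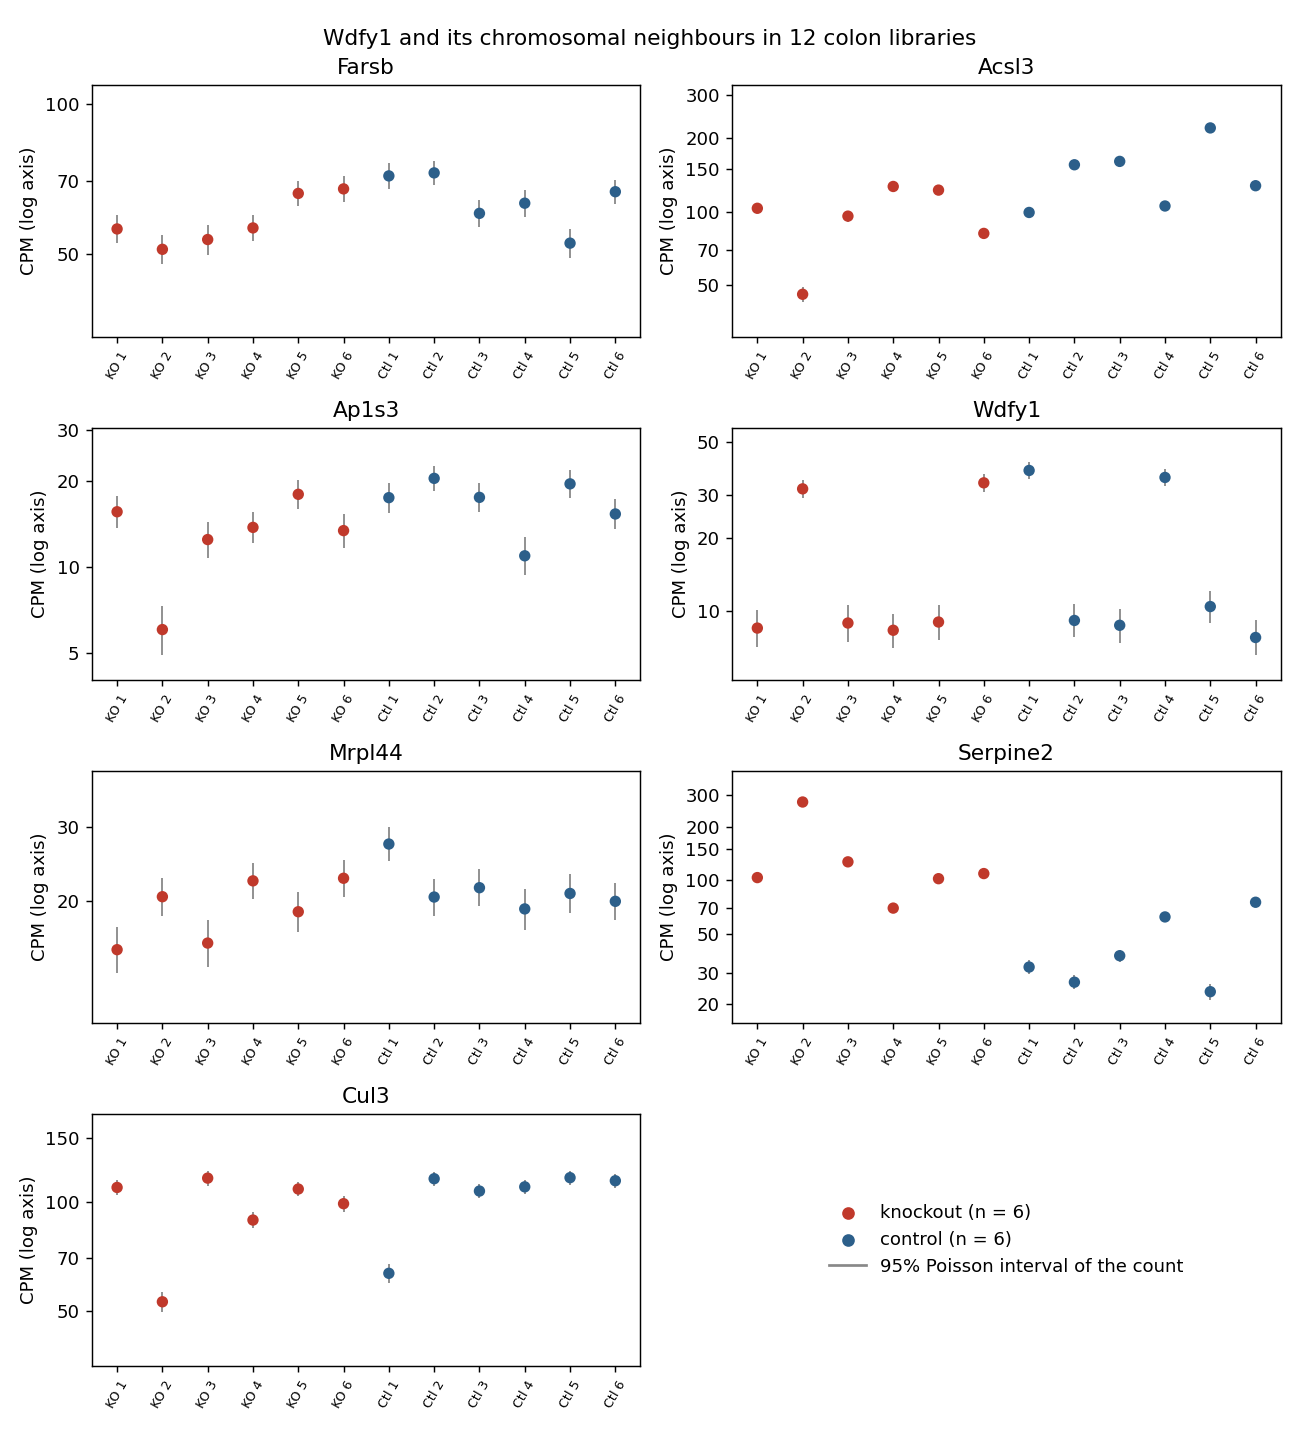
Each panel shows the level of 1 gene in CPM (log axis) in the 6 knockout (KO, red) and 6 control (Ctl, blue) libraries, with 95% Poisson intervals of the count as bars. Panels follow the order on the chromosome. Wdfy1 has 4 libraries at 31.9 to 38.0 CPM and 8 at 7.76 to 10.4 CPM, and no other panel shows this division.

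Mrpl44, whose start lies within the Wdfy1 gene, ran from 15.3 CPM (knockout 1) to 27.4 CPM (control 1). Its values were 15.3, 20.5, 15.8, 22.3, 18.8 and 22.7 CPM in knockout 1 to 6 and 27.4, 20.4, 21.5, 19.1, 20.8 and 19.9 CPM in control 1 to 6. Control 1 and knockout 6, which were high in Wdfy1, were the 2 highest libraries, but control 4, also high in Wdfy1, was among the 4 lowest at 19.1 CPM. Its r with Wdfy1 was 0.48 (Spearman's rho 0.36), the highest among the 6 neighbours, and 0.25 without knockout 2 and control 1. Its whole range was 1.79-fold, below the 3.06-fold step of Wdfy1. The genotype difference was -0.16 ± 0.13 (log2, SE; edgeR adjusted p = 0.486). Without control 1 alone, the r was 0.27 and the difference -0.08, and without knockout 1 the difference was -0.10. The difference was -0.10 ± 0.12 (SE) without knockout 2 and control 1 together.

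Ap1s3, the neighbour on the other side, was lowest in knockout 2 at 6.06 CPM and next lowest in control 4 at 10.9 CPM, both high in Wdfy1. The other 2 libraries high in Wdfy1 lay within the range of the other 8, at 13.4 CPM (knockout 6) and 17.4 CPM (control 1). The highest values were 20.4 CPM in control 2 and 19.5 CPM in control 5. Its r with Wdfy1 was -0.51, with a rho of -0.14. Knockout ran from 6.06 to 17.9 CPM (median 13.6) and control from 10.9 to 20.4 CPM (median 17.5), a log2 difference of -0.35 ± 0.22 (SE; edgeR adjusted p = 0.371). Without knockout 2 this difference was -0.20. Without knockout 2 and control 1 it was -0.19 ± 0.17 (SE; edgeR adjusted p = 0.581), and the r was -0.57.

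Serpine2 varied most among the 7 genes, from 23.6 to 274.6 CPM, or 11.7-fold. In knockout 1 to 6 it stood at 103, 274.6, 127, 69.5, 102 and 109 CPM, and in control 1 to 6 at 32.4, 26.6, 37.6, 62.0, 23.6 and 75.01 CPM. The 2 knockout libraries high in Wdfy1 held the highest and the third highest of its values, while control 1, also high in Wdfy1, held 1 of its 3 lowest. Its r with Wdfy1 was 0.18 and its rho -0.15, so even the sign depends on the measure. The r was -0.07 without knockout 2, 0.11 without knockout 6, 0.40 without control 1, 0.12 without control 2 and 0.15 without knockout 2 and control 1. Knockout averaged 131 ± 72.9 and control 42.9 ± 20.8 CPM (SD, n = 6), a log2 difference of 1.61 ± 0.36 (SE; edgeR adjusted p = 0.0531), and the groups overlapped in knockout 4 and control 6. The fibroblast markers, from cells that secrete Serpine2, were also higher in knockout, at 3353 to 8368 against 2010 to 4185 CPM, and their part in this difference was not tested. Without knockout 2 and control 1 the log2 difference was 1.18 ± 0.31 (edgeR adjusted p = 0.160).

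Cul3 was almost level in 10 libraries, between 89.1 and 116.5 CPM, and low in knockout 2 (53.1 CPM) and control 1 (63.6 CPM). These 2 libraries are high in Wdfy1, but knockout 6 and control 4, the other 2, lay among the 10 at 98.8 and 109.9 CPM. Its r with Wdfy1 was -0.63, the most negative of the 6 neighbours, with a rho of -0.23. Without knockout 2 and control 1 the r was -0.18. The genotype difference was -0.12 ± 0.19 (log2, SE; edgeR adjusted p = 0.742). It was -0.0015 without knockout 2, -0.23 without control 1 and -0.11 ± 0.08 (SE) without both.

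Acsl3 was lowest in knockout 2 at 46.0 CPM and highest in control 5 at 221 CPM. Knockout 6 at 81.7, control 1 at 99.5 and control 4 at 105.7 CPM were also in the lower part of its range, below knockout 4 and 5 and below the other 4 controls. Knockout 3 (96.1 CPM) and knockout 1 (103 CPM), both low in Wdfy1, lay among them. Its r with Wdfy1 was -0.61 (rho -0.40), and -0.47 without knockout 2 and control 1. After centring within genotype the r was -0.77. Knockout ran from 46.0 to 127 CPM (median 99.8) and control from 99.5 to 221 CPM (median 142), a log2 difference of -0.59 ± 0.24 (SE; edgeR adjusted p = 0.167). The difference without knockout 2 and control 1 was -0.54 ± 0.19 (SE; edgeR adjusted p = 0.195).

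Farsb was the least variable of the 7 genes, between 51.2 CPM (knockout 2) and 72.8 CPM (control 2), or 1.42-fold. The libraries high in Wdfy1 lay at both ends and between, at 51.2, 63.3, 67.6 and 71.8 CPM in knockout 2, control 4, knockout 6 and control 1. Its r with Wdfy1 was 0.18 (rho 0.20), and its genotype difference was -0.14 ± 0.10 (log2, SE; edgeR adjusted p = 0.425). The r turned to -0.01 without control 1 and was 0.43 without knockout 2, 0.12 without knockout 3, 0.11 without knockout 4, 0.09 without knockout 6 and 0.31 without control 2. With both knockout 2 and control 1 left out, the r was 0.27 and the difference -0.07 ± 0.10 (SE).

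None of the 6 neighbours had the same 4 libraries at the top or at the bottom of its order as Wdfy1 has at the top. Their widest gaps, at any position in the order, were 0.10 (Farsb), 0.19 (Ap1s3), 0.25 (Mrpl44), 0.28 (Acsl3), 0.49 (Cul3) and 0.72 (Serpine2) on the log2 scale, against 1.60 for Wdfy1. Because the libraries fall into 2 separate levels of Wdfy1, a pooled r mostly measures the step, and it is given here as a measure of likeness with no p. Within the 8 lower libraries Wdfy1 varied 1.34-fold. Their 95% counting intervals overlapped, even those of control 5 (from 8.91 CPM) and control 6 (up to 9.14 CPM). Relations with the neighbours there could thus not be judged at this depth. The values were r of 0.63 for Acsl3, 0.55 for Ap1s3, -0.56 for Serpine2, 0.37 for Cul3, -0.31 for Farsb and 0.08 for Mrpl44, and Spearman's rho of 0.33, 0.71, -0.43, 0.57, -0.19 and 0.00. These values are given without a p, because the 8 libraries were set apart by the level of Wdfy1 itself. With the 2 libraries farthest from the median of Wdfy1 left out, r became 0.22, 0.53, -0.26, 0.79, 0.67 and -0.09 in the same order of genes.

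The view was then widened to the 20 tested genes on each side of Wdfy1, which reach 4456.57 kb toward lower and 5873.84 kb toward higher coordinates. None of these 40 genes had an r with Wdfy1 of at least 0.8 or at most -0.8, limits that 25 of 13907 other genes with a mean of at least 1 CPM passed (0.18%). At so small a share, finding none among 40 says little about position. The r of the 40 genes ran from -0.63 (Cul3) to 0.48 (Mrpl44), with a median of 0.07 against 0.06 for all tested genes, and 22 of 40 were above 0. The 2 genes at the ends of this range are 2 of the 3 nearest on the higher-coordinate side. No gene of the window had a gap of more than 50% of its range, and the widest, 0.92 on the log2 scale, was in Kcne4, a potassium channel subunit (6.52 to 81.8 CPM, r = 0.12). Scg2, the precursor of secretoneurin in neuroendocrine granules, had r = -0.04 with a range of 16.9 to 46.7 CPM.

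**Figure D3:**
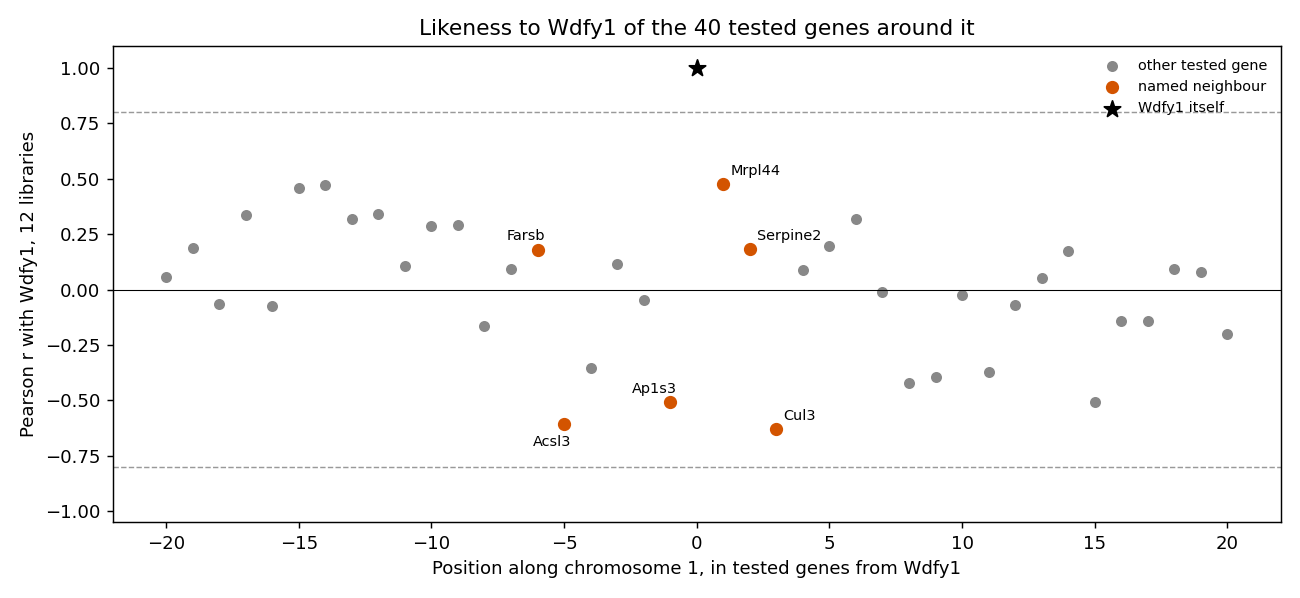
Pearson's r with Wdfy1 over 12 libraries is plotted for the 20 tested genes on each side of it, in chromosome order (x axis: position in tested genes, y axis: r, no unit). Dashed lines mark r of 0.8 and -0.8; all 40 genes lie between -0.63 and 0.48, and the 6 named neighbours are spread over that whole range.

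None of the 6 neighbours, and none of the 40 genes of the window, was called between knockout and control by edgeR at an adjusted p of 0.05, where 8 of 14393 tested genes were called (0.0556%). At an unadjusted p of 0.05, edgeR counted 2 of the 6 (Serpine2 and Acsl3) and 14 of the 40, against 22.6% of all tested genes. DESeq2 called Serpine2 and 6 of the 40 (Kcne4, Obsl1, Pid1, Ptprn, Serpine2 and Sphkap, all higher in knockout) where it called 10.6% of all tested genes, and limma voom called none, against 0.34%. Serpine2 also passed in edgeR when knockout 4, control 4 or control 6 was left out (adjusted p 0.0246, 0.0238 and 0.0493). Its edgeR adjusted p rose to 0.110, 0.0905 and 0.0912 without knockout 1, 2 and 3, and to 0.123 without control 1. With the replicate number as a block it was 0.259. In the authors' deposited table Serpine2 had a log2 fold change of 1.70 and an adjusted p of 0.000592. Knockout and control overlapped in all 6 neighbours, as in all but 1.52% of the tested genes. The number of genes that edgeR called moved by over 1.5 times whenever any 1 of the 12 libraries was left out, to between 2 and 1272.

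The other genes most like Wdfy1 were few, and their steps were small. Of 13907 genes, 13 had r of at least 0.8 and 12 had r of at most -0.8. The 10 highest were Rgs3 (0.87), a regulator of G protein signalling, Ggcx (0.86), the vitamin K-dependent gamma-glutamyl carboxylase, and Rexo1 (0.85), an RNA exonuclease, then Ago2 (0.83), the slicing Argonaute protein. They continued with Fcrl1 (0.83), a B cell surface receptor, Derl1 (0.82), which works in the disposal of misfolded proteins from the endoplasmic reticulum, and Rae1 (0.82), an mRNA export factor. The list closed with the immunoglobulin heavy chain segment Ighv1-18 (0.81), Atf6b (0.81), a transcription factor of the endoplasmic reticulum stress response, and Borcs8 (0.81), a subunit of the complex that positions lysosomes. Reads of immunoglobulin segments can be shared among near-identical copies, so the level of Ighv1-18 is uncertain.

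None of the 10 lies on chromosome 1, but the share of all tested genes on that chromosome was not counted. The 5 lowest were Sbds (-0.87), a ribosome maturation factor, Lca5 (-0.87), the ciliary protein lebercilin, Cwc15 (-0.86), a spliceosome protein, Gnpda2 (-0.85), a glucosamine-6-phosphate deaminase, and Itprid2 (-0.85). Spearman's rho ran from 0.59 (Ggcx) to 0.87 (Rexo1) in the 10 and from -0.57 (Sbds) to -0.76 (Itprid2) in the 5. On log2(TPM + 1), r was weaker for Rexo1 (0.68), Lca5 (-0.70) and Cwc15 (-0.48), and stronger for Fcrl1 (0.87), Derl1 (0.87) and Borcs8 (0.86). Rgs3 stood at 37.0, 47.2, 39.0, 37.5, 35.9 and 45.5 CPM in knockout 1 to 6 and at 49.9, 42.0, 41.3, 45.0, 36.05 and 38.7 CPM in control 1 to 6. The same 4 libraries that are high in Wdfy1 are thus its highest, but the step between 42.0 and 45.0 CPM is small. Sbds stood at 87.9, 69.6, 96.4, 104, 90.9 and 69.1 CPM in knockout 1 to 6 and at 67.3, 90.8, 89.5, 78.1, 99.0 and 84.4 CPM in control 1 to 6, with the same 4 libraries lowest.

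Of the 10 positive genes, 9 had the same 4 highest libraries as Wdfy1, and all 5 negative genes had those 4 lowest. Choice by r with a gene of 2 levels makes this likely, so it only describes the 15 genes. The ratio of highest to lowest library was between 1.23 (Ago2) and 4.02 (Fcrl1) over the 15 genes, and the widest gap was at most 0.48 on the log2 scale (Fcrl1), against 1.60 for Wdfy1. Control 1 or knockout 2 was the highest library in 8 of the 10 and the lowest in 4 of the 5. Without these 2 libraries, r was 0.78 for Rgs3, 0.83 for Ggcx and 0.69 for Derl1, and -0.78 for Sbds and -0.82 for Lca5. Within the 8 lower libraries r was -0.23 for Rgs3, -0.22 for Ggcx, 0.53 for Rexo1, 0.75 for Derl1 and 0.43 for Sbds. These rest on Wdfy1 values whose counting intervals overlapped. The number of genes past 0.8 or -0.8 was 25 with all libraries. It was 286 without control 4, 68 without knockout 6, 52 without knockout 5, 49 without knockout 4, 48 without control 2 and 38 without knockout 3.

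The order of libraries alone was also counted after the data were seen, which asks nearly the same of these values as r does. Besides Wdfy1, 45 of 13907 genes (0.324%) had the same 4 highest libraries and 61 (0.439%) had those 4 lowest. The step between the 4 and the other 8 was at most 0.20 (Ighv1-18) and 0.23 (Lca5) on the log2 scale, with medians of 0.02 and 0.03. Of these genes, 2 and 5 lie on chromosome 1, and none of the 7 is in the window around Wdfy1. Without the share of all tested genes on chromosome 1, which was not counted, these numbers say nothing about position.

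**Figure D4:**
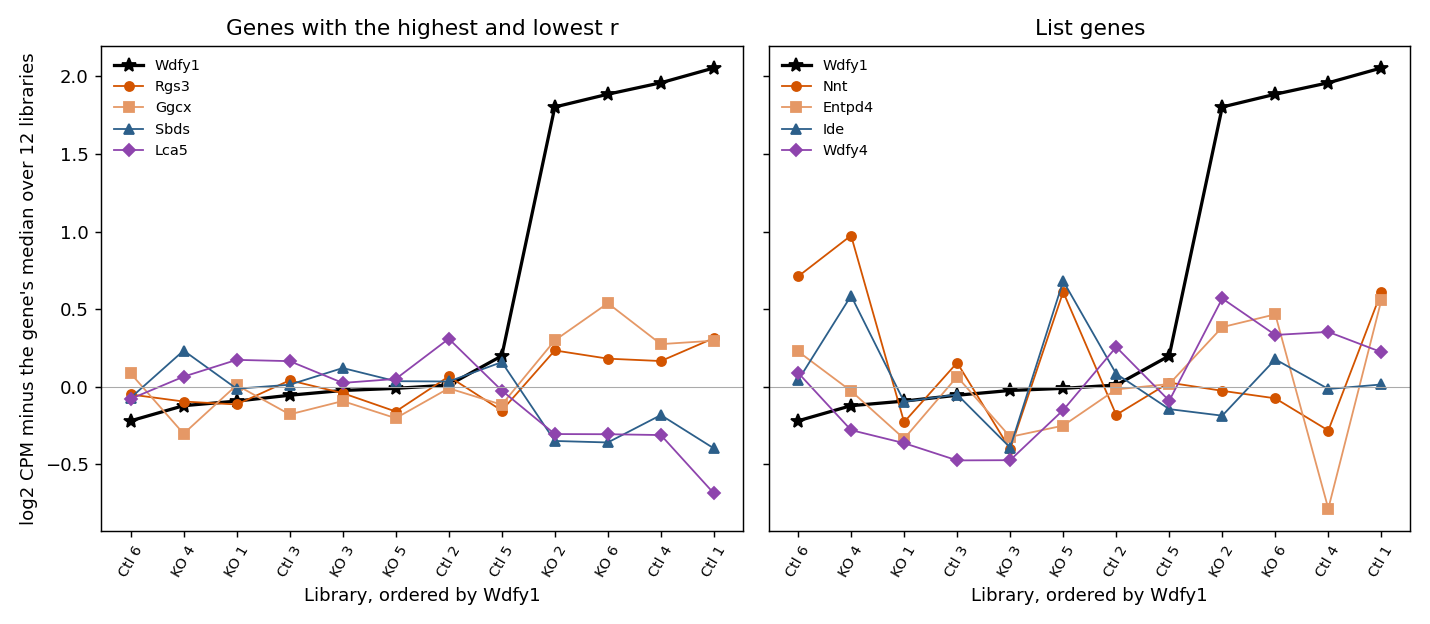
Levels (log2 CPM minus the gene's own median over 12 libraries, y axis) are plotted with libraries ordered by Wdfy1 (x axis), for the 2 genes with the highest and the 2 with the lowest r on the left, and for 4 genes of the lists on the right. Lines only join the values of a gene; Wdfy1 steps up by 1.60 between control 5 and knockout 2, and Rgs3, Ggcx, Sbds and Lca5 differ by much less in the same 4 libraries.

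The next list holds genes known to differ in sequence or expression between C57BL/6 substrains, 7 of 8 of which were tested (not Crb1). A gene that differs in sequence only need not differ in RNA, and a part of substrain in the Wdfy1 levels was not tested. The r of the 7 genes with Wdfy1 ran from -0.54 to 0.35. None was called between the genotypes by edgeR, DESeq2 or limma voom, and none had an unadjusted edgeR p under 0.05. The smallest edgeR adjusted p was 0.533, and the median log2 difference was 0.08 against -0.03 for all tested genes. Naip1, an inflammasome sensor of bacterial proteins, and Ide, the insulin-degrading enzyme, had the highest mean CPM of the list. Naip1 ran from 219 to 406 CPM with its lowest value in knockout 2 (r = -0.54). Ide was highest in knockout 5 (108 CPM) and knockout 4 (101 CPM) and lay between 51.3 and 76.2 CPM elsewhere (r = -0.16).

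Nnt and Entpd4 were singled out after their values were seen. Nnt, the mitochondrial enzyme that makes NADPH from NADH, stood at 13.6 to 17.5 CPM in knockout 4, knockout 5, control 1 and control 6 and at 6.66 to 9.86 CPM in the other 8. Its widest gap was 0.46 on the log2 scale, 33.0% of its range, and only 1 of those 4 libraries, control 1, is high in Wdfy1. Entpd4, a nucleoside diphosphatase of the Golgi, had a widest gap of 0.22 on the log2 scale and was highest in control 1 (55.2 CPM), knockout 6 (51.8 CPM) and knockout 2 (49.0 CPM), all high in Wdfy1, but lowest in control 4 (21.7 CPM), which is high in Wdfy1 as well. Its near-identical copy Entpd4b was also highest in control 1 (32.5 CPM) and lowest in control 4 (12.05 CPM), and reads may be split between the copies.

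The WDFY family and other genes of PI3P on endosomes gave no gene past r of 0.8 or -0.8 among 18 tested. The nearest was Wdfy4, a paralogue needed for antigen cross-presentation in dendritic cells, at 0.76 (rho 0.68). It stood at 25.8 to 32.9 CPM in the 4 libraries high in Wdfy1 and at 15.9 to 26.4 CPM in the other 8, so the values overlapped. The opposite end was Rab5a, a small GTPase of early endosomes, at -0.70 (rho -0.46). It was lowest in knockout 2 (64.5 CPM) and control 1 (73.2 CPM). Knockout 6 (96.5 CPM) and control 4 (94.1 CPM), also high in Wdfy1, lay within the range of the other 8. Rab5c and Rab5b, relatives of Rab5a and the members with the highest mean CPM, had r of 0.52 and 0.44. None of the 18 was called by edgeR or limma voom. At an unadjusted edgeR p under 0.05 there were 2 (11.1%, against 22.6% of all tested genes). DESeq2 called 1 (5.56%, against 10.6%), Plekhf1, a FYVE-domain protein of endosomes and lysosomes (log2 difference 0.70 ± 0.21, SE; edgeR adjusted p = 0.0750). The list's median difference between the genotypes was -0.01, against -0.03 for all tested genes.

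Of the genes of the TLR3 and TLR4 route through TRIF, 19 of 20 were tested (not Ifnb1), and r with Wdfy1 ran from -0.69 (Ifit1) to 0.60 (Rela), with a median of 0.12. Ticam1, which encodes TRIF, had r of 0.29, and the receptors Tlr3 and Tlr4 had r of -0.49 and -0.36. Knockout 2 and control 1 were the 2 lowest libraries of Ifit1, Tlr3 and Tlr4, whose rho was -0.38, -0.14 and -0.23. The rho of Rela was 0.43. Irf7, a transcription factor of the interferon response, and Ifit1, an interferon-induced RNA-binding protein, had the highest mean CPM, with ranges of 155 to 673 and 13.3 to 361 CPM. None of the 19 was called between knockout and control by edgeR or limma voom. An unadjusted edgeR p under 0.05 was found for 3 (15.8%, against 22.6% of all tested genes), and DESeq2 called 2, Cd14 and Nfkb1 (10.5%, against 10.6%). Cd14, a co-receptor for lipopolysaccharide, had the smallest edgeR adjusted p, 0.0522, with a log2 difference of 1.25 ± 0.25 (SE); the immune markers stood at 130.2 to 487 CPM in knockout and 102 to 343 CPM in control, and their part in it was not tested. The median difference was 0.07.

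Partner genes of the neighbours, all 22 tested, comprise subunits, relatives and substrates of the 6 proteins. Farsa, the alpha subunit that pairs with Farsb, had r of 0.59 with Wdfy1, and Ap1b1, the beta subunit of AP-1, had the highest, 0.63. Nfe2l2, the transcription factor that Cul3 and KEAP1 keep low, and Ap1g1, the gamma subunit of AP-1, had the highest mean CPM and r of -0.29 and 0.33. None passed 0.8 or -0.8, and none was called by edgeR or limma voom. At an unadjusted p of 0.05 edgeR counted 8 (36.4%, against 22.6% of all tested genes), and DESeq2 called 7 (31.8%, against 10.6%), of which 6 were higher in knockout. Among these were Plau, the urokinase that Serpine2 inhibits (log2 difference 1.64 ± 0.41, SE; edgeR adjusted p = 0.0580, the smallest of the list), and the plasminogen activator Plat (1.41 ± 0.40; edgeR adjusted p = 0.0694). The list's median difference was -0.01.

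The deposited table allows a further look at Wdfy1, since the ratio of a count to its TPM within a library is proportional to the gene length used for the TPM. Divided by the median ratio of the library, this relative length ran from 1.04 (knockout 1) to 1.59 (control 2) for Wdfy1, a 1.53-fold range. Only 2.44% of 9396 genes with a mean count of at least 200 had a larger SD of its log2 value over the libraries. For Mrpl44 the range was 1.01-fold and for Ap1s3 1.27-fold (6.96% of genes had a larger SD), and for the other 4 it was at most 1.13-fold. The 4 libraries high in Wdfy1 lay between 1.43 and 1.55, inside the range of 1.04 to 1.59 of the other 8, so the 2 levels of Wdfy1 are not separated by this length. How the authors set the length per library is not given in the sources used here, and transcripts of Wdfy1 span 460 to 4551 bases in the annotation. This ratio was chosen after the data were seen.

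**Figure D5:**
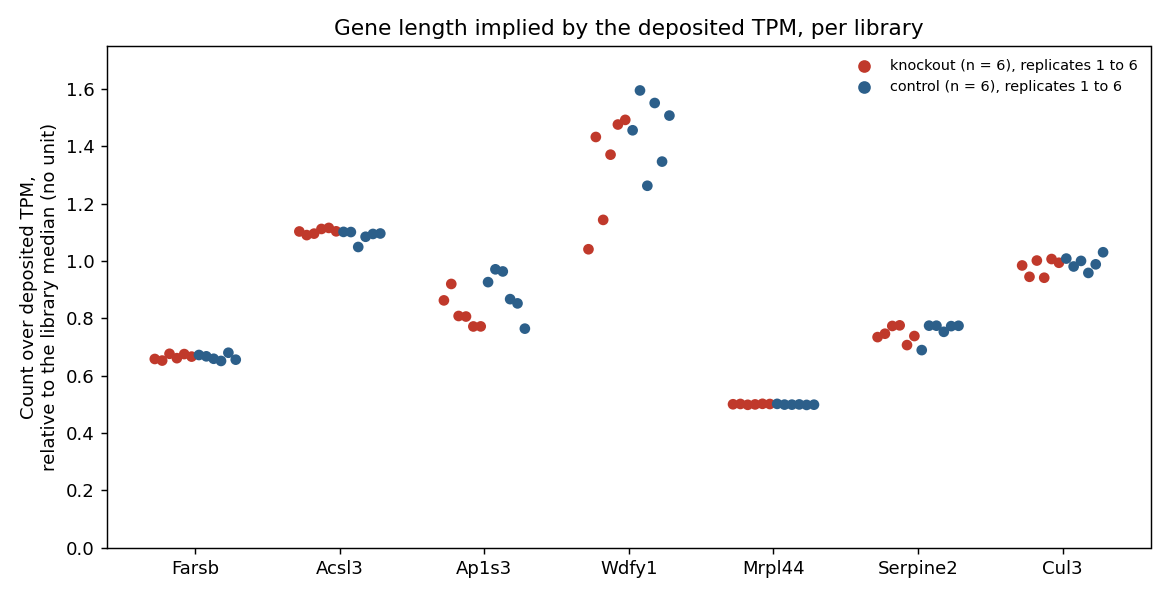
For each of the 7 genes, in chromosome order, the points give the count divided by the deposited TPM relative to the library's median ratio (y axis, no unit), for knockout 1 to 6 (red) and control 1 to 6 (blue) from left to right. Wdfy1 spreads from 1.04 to 1.59 and Ap1s3 1.27-fold, while the points of Mrpl44 fall on nearly 1 value (1.01-fold).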

How the data were processed

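Colon RNA was extracted with Trizol and sequenced from SMARTER mRNA-Seq libraries, per the labels' protocols. The authors deposited 1 table of 21899 genes with raw read counts per gene and library, used as deposited, and TPM, which the authors scaled for depth and length. It also holds the authors' log2 fold changes and p-values with adjusted p-values, whose test is not given in the sources used here. The submitters' processing notes list GRCm38, mm10 and mm39 without roles; the sources used here name no aligner or counter. It held 0 columns of samples outside the series.

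The labels gave the groups and replicate numbers. Genes were filtered with filterByExpr (minimum count 10, minimum total 15) and scaled by TMM, and knockout minus control was tested over all 12 libraries with edgeR 4.0.16 (R 4.3.3; quasi-likelihood F test, no covariate, Benjamini-Hochberg adjustment, threshold 0.05). Biological variation was 0.262 (coefficient), with 3.39 prior degrees of freedom. Levels are CPM after TMM or log2 CPM with a prior count of 2. Likeness is Pearson's r of log2 CPM with Wdfy1 over 12 libraries. A widest gap is the largest step between ordered libraries with at least 2 on each side. The window is the 20 tested genes on each side by GENCODE M21 start. Depth was 15348192 to 19138507 counts per library, and counting error is given as 95% Poisson intervals. No 2 libraries were alike within counting noise (lowest chi-square per gene 19.6 over 66 combinations).

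The members and lists were chosen with earlier results of these data known. Named by rule were the 7 members, the 10 genes with the highest and 5 with the lowest r, the 3 nearest tested genes on each side and any in the window past r of 0.8, and from each list the 2 with the highest mean CPM and any past r of 0.8 or called. Other named genes were chosen after their values were seen. Single values of some list members are left out here. Alternatives were other scalings, filters and prior counts, DESeq2 1.42.0, limma 3.58.1 (voom), log2(TPM + 1), Spearman's rho, centring within genotype, the replicate number as a block, other windows and each library left out; leaving out knockout 2 and control 1 together was added after seeing the data. Tested on simulated data with 14322 genes, the genotype test recovered 89% of changes of log2 size 1 and 100% of size 2. It called 0.0637% of unchanged genes. Of planted followers with a step of log2 size 2, 100% passed r of 0.8, and smaller steps were not simulated. The step was planted in knockout 2, knockout 5, control 1 and control 4, whereas Wdfy1 is high in knockout 6 and not in knockout 5. No library was made to stand apart in the simulation, so its rates may not hold for these data. The limit was also passed by 0.0701% of other genes.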

Additional observations from a re-analysis of the deposited data

Results flagged for a closer look

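Values of the 7 genes were checked for a library that stands apart from the other 5 of its genotype, in 14 groups of 6, where chance gives such a value in about 1 in 20 groups. Mrpl44 stood apart in control 1 at 27.4 CPM, with the nearest other control at 21.5 CPM. Ap1s3 stood apart in knockout 2 at 6.06 CPM, with the nearest other knockout at 12.5 CPM. Cul3 stood apart in both of these libraries, at 63.6 CPM in control 1 (nearest 107) and at 53.1 CPM in knockout 2 (nearest 89.1). All 4 values come from the 2 libraries least like the rest.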

How the results depend on the processing

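The widest gap of Wdfy1 (1.34 to 1.79 over 18 settings) held in every setting run. So did the absence of a neighbour past the limit on r (22 settings, including 10 or 40 genes on each side). The limit was 0.8 or -0.8 except in 1 setting, where 0.7 was used with the main r over all libraries. In other settings neighbours did pass -0.7. Acsl3 had r of -0.77 after centring within genotype, and Cul3 reached -0.78 with 1 library left out. The main limit of 0.8 was passed by only 0.18% of 13907 other genes, so finding none among the neighbours says little about position. The 8 genes called between the genotypes became 52 with DESeq2's size factors, 275 with library size only, 1519 with DESeq2, 49 with limma voom, 1 with the replicate block, 1 without knockout 2 and control 1, and 2 to 1272 with 1 library left out. The number of the 6 neighbours called, 0 in the main edgeR test, was 1 (Serpine2) in edgeR with library size only (adjusted p 0.0463). It was also 1 (Serpine2) with DESeq2 (adjusted p 0.000496), and 0 to 1 in edgeR with 1 library left out. The 25 genes past r of 0.8 or -0.8 became 38 with library size only, 57 with log2(TPM + 1), 15 with Spearman's rho, 91 after centring within genotype, and 25 to 286 with 1 library left out. The log2 difference of Wdfy1 (-0.12) changed sign in 6 settings: 0.01 without knockout 1, 0.0050 without knockout 3, 0.03 without knockout 4, 0.0040 without knockout 5, 0.23 without control 1 and 0.18 without control 4, within a range of -0.45 to 0.23 with 1 library left out. The cause of these changes was not tested. The labels do not say whether replicate numbers pair the mice. Same-numbered deviations correlated at -0.50 to 0.08, 0 of 6 over 0.1, and 0 knockouts matched best with their own number. Such correlations cannot tell whether the mice were paired by design. In the fit with the replicate block none of the 6 neighbours was called. Depth limits Wdfy1 in the lower libraries, where 134 to 171 reads gave counting intervals that overlapped, so differences within that level are uncertain.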
